A study of Mus musculus with 2 samples.

Results

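Alarmin cytokines and the receptors that read them were followed across the cells of the fetal mouse lung. The 9 genes were taken from the expression matrix by their symbols, out of 32285 genes in all: the ligands Il33, Tslp, Il25 and Il18, and the receptor chains Il1rl1, Il1rap, Il17rb, Crlf2 and Il18r1. All 9 symbols had a row. The question put to the data was where each ligand and each receptor was transcribed, and whether exposure of the mother to dexamethasone (DEX), a synthetic glucocorticoid, altered those levels.

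Wild type pregnant mice aged 9 weeks drank water with 1.3 µg/ml DEX, or with phosphate-buffered saline (PBS) in its place, from day 12 of gestation, and fetal lungs were taken on day 18. The fetuses of each litter were pooled, and the pools held 8 (DEX-1) and 9 (DEX-2) fetuses of DEX mothers and 5 (PBS-1) and 8 (PBS-2) of PBS mothers. Living CD45+ cells without lineage markers and with ST2 on the surface were sorted, each litter received an antibody hashtag, and the 4 litters were run together in 1 droplet library that counts molecules (UMIs) at the 5′ ends of transcripts. The labels tie each hashtag to a mother of its own, while the legend of the study speaks of a single dam per group, and this could not be settled here. The litter was taken as the replicate (n = 2 per group). The p-values for DEX against PBS within a class measure the spread between litters of pooled fetuses that share a library. In tests between classes the litter was a block, so those p-values measure how class differences vary between litters. Both may reflect less than the spread between mothers.

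Alarmins are cytokines that barrier and stromal cells release on damage or stress. IL-33 binds ST2, the product of Il1rl1, which pairs with the shared chain IL1RAP and signals through MyD88. TSLP binds a pair of the Crlf2 product and the IL-7 receptor alpha chain, IL-25 binds a pair of IL17RB and IL17RA, and IL-18 binds a pair of the Il18r1 and Il18rap products. In the lung these signals drive group 2 innate lymphoid cells (ILC2s), mast cells and basophils to make type 2 cytokines. Because the sort selected cells with ST2 protein, the level of Il1rl1 in the sorted cells is partly fixed by the gate.

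Il1rl1 and Il18r1 are neighbours. In GRCm38 with the GENCODE M21 annotation, Il1rl1 lies on the plus strand at chr1:40429570-40465415 and Il18r1 at chr1:40465552-40500854, with 136 bases between them, and the IL-1 receptor genes Il1r2 (chr1:40074079-40125231) and Il1r1 (chr1:40225080-40317257) and the second IL-18 receptor chain Il18rap (chr1:40515362-40551705) stand beside them. The other members with a position given here are spread over the genome: Crlf2 at chr5:109554709-109558993, Il18 at chr9:50554827-50581840, Il17rb at chr14:29996135-30008896, Il25 at chr14:54932695-54935837, Il1rap at chr16:26581704-26730117 and Il33 at chr19:29925114-29960718. Il1rl1 has a distal and a proximal promoter, and its transcripts encode a membrane and a soluble form of ST2. The gene counts used here add up both starts and both forms.

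The starts of Il1rl1 and of Il17rb are shown because these genes set the mast-like and ILC2-like cells described below apart most clearly. Each window is 300 bases of RefSeq sequence on GRCm38.p6, from 250 bases before to 50 bases after an annotated start, read 5′ to 3′ along the gene, and the capitals mark the letters GATAA or, on the other strand, TTATC, the core that GATA factors bind.
Il1rl1 distal start, chr1:40429320-40429619, plus strand: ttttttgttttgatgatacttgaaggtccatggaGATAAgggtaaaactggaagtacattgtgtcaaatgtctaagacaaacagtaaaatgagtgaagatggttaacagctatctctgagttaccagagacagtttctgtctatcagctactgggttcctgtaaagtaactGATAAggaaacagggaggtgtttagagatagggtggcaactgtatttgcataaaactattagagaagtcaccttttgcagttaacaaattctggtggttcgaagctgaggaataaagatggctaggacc
Il1rl1 proximal start, chr1:40439379-40439678, plus strand: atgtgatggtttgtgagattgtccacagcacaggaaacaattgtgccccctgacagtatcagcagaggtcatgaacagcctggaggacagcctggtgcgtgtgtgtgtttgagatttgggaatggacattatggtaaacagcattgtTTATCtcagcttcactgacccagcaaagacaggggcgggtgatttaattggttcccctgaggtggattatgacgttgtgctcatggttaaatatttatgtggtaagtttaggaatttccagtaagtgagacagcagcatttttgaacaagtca
Il17rb start, chr14:30008847-30009146, minus strand: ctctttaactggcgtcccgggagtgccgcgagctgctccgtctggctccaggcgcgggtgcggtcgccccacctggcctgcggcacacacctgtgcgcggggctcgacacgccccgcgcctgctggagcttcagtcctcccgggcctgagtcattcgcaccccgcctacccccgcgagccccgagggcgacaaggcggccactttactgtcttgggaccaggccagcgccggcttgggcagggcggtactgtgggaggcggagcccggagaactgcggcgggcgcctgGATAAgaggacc
The distal Il1rl1 window held 2 matches, the proximal window 1 and the Il17rb window 1. Of 32851 such windows of the mouse genome, 25.4% held at least 1 match and 5.27% at least 2. The 11 windows of the 7 members in the table included 1 more match, at an Il33 start, and none for Crlf2, Il18, Il1rap and Il18r1. A match gives the position of letters and not a bound site.

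Of 10648 barcodes, 10409 passed the filters of at least 200 genes and at most 5% mitochondrial UMIs, and 7268 of these carried a single hashtag (1737 to 1890 cells and 18665955 to 23660294 UMIs per litter, with median depths of 7458 to 8325 UMIs per cell). Cells were clustered without the 9 genes and the signalling genes named below, and clusters were named from marker lists: ILC2-like (2078 cells), mast-like (2315), basophil-like (493), epithelial-like (447), endothelial-like (282), mesenchymal-like (197), B-like (199) and macrophage or monocyte-like (199), with 1058 cells in clusters left unnamed. The labels describe a sort of CD45+ ST2+ cells, but cells led by epithelial, endothelial or mesenchymal genes were present. Ptprc, which encodes CD45, had a UMI in 12.8% of epithelial-like and 72.6% of ILC2-like cells. Gata3, the factor that defines ILC2s, had a UMI in 88.5% of ILC2-like and 0.821% of mast-like cells, and the leading genes of the main ILC2-like cluster also included the T cell genes Tcrg-C1 and Cd3g. Droplets held free RNA: Sftpc, a surfactant gene of alveolar epithelium, had a UMI in 69.9% to 85.8% of the cells of every other class. Levels are given as CPM, the UMIs of a gene in the summed cells of a class and litter scaled to 1 common total, and since tags were counted at transcript ends, a level was compared between classes for 1 gene and not between genes.

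Among the ligands, Il33 was highest in the epithelial-like cells. The 4 litters there had 31.6 (DEX-1), 33.3 (DEX-2), 59.4 (PBS-1) and 32.3 (PBS-2) CPM (mean 39.2 ± 13.5 SD, n = 4, 381 UMIs). PBS-1 stood above the other litters, and PBS-2 lay between the DEX litters. The next class, the mesenchymal-like cells, had a mean of 4.39 CPM on 10 UMIs, 8.92-fold lower than the epithelial-like cells with no overlap between litters, and the remaining classes had means of at most 1.21 CPM, with 0 UMIs in B-like cells.

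Within the epithelial-like class, 377 of the 381 Il33 UMIs lay in 1 cluster of 315 cells led by Dlk1, Sftpb and Sftpc, genes of alveolar type 2 and distal progenitor cells. Its litters held 38.2, 43.8, 79.6 and 43.7 CPM by litter in the order above (mean 51.3 ± 19.0 SD). The cluster led by Msln, Aqp5 and Ager, genes of alveolar type 1 cells, had 1 UMI in 104 cells, and the cluster led by the club cell gene Scgb1a1 had 3. A deep unnamed cluster led by Scn7a and Col4a1, with a median of 33034 UMIs per cell and with endothelial and epithelial markers detected together, held a further 326 Il33 UMIs (mean 25.3 ± 14.3 CPM).

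Tslp was highest in the mesenchymal-like cells. The litters had 21.3 (DEX-1), 28.6 (DEX-2), 29.4 (PBS-1) and 39.2 (PBS-2) CPM, a mean of 29.6 ± 7.38 (SD, n = 4) on 67 UMIs. The endothelial-like cells followed with 9.09, 12.5, 15.2 and 19.6 CPM (mean 14.1 ± 4.45, 56 UMIs), and these 2 classes did not overlap. In both classes the 2 DEX litters lay below the 2 PBS litters when all cells were summed, but this order did not hold in their main parts. Within the endothelial-like class, 19 UMIs came from 16 cells led by Cxcl12 (43.9 CPM over the summed cells), which made up 17.3% of the class in PBS-2 and 1.43% to 4.17% in the other litters. The other 266 cells held 37 UMIs, with 9.48 (DEX-1), 12.2 (DEX-2), 7.91 (PBS-1) and 13.9 (PBS-2) CPM, so that the groups overlapped. In the mesenchymal-like class the summed level of 8 mast cell markers was also lower in the DEX litters (5188 and 6996 CPM) than in the PBS litters (7823 and 12199 CPM), and without the cells rich in mast transcripts, defined below, Tslp stood at 27.3 and 38.1 against 35.3 and 70.5 CPM, with overlap. The means of the other named classes were at most 1.21 CPM. The deep unnamed cluster led by Scn7a and Col4a1 held 140 Tslp UMIs (mean 10.7 ± 3.53 CPM).

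Il25 had no UMI in any of the 10648 barcodes. In the cells thinned to 2000 UMIs, 0 of 2052 ILC2-like cells and 0 of 443 epithelial-like cells held an Il25 UMI, which allows a share of cells with a UMI at that depth of up to 0.146% and 0.677%. Il25, known from tuft cells of the airway and gut, was therefore not detectable at this depth, and its absence cannot be stated.

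Il18 was the ligand of the macrophage or monocyte-like cells. The litters had 270.1 (DEX-1), 249 (DEX-2), 342 (PBS-1) and 336 (PBS-2) CPM, a mean of 299 ± 47.0 (SD, n = 4) on 552 UMIs, with 28 to 85 cells per litter. The DEX litters (259 ± 15.2 CPM) lay below the PBS litters (339 ± 4.05 CPM) without overlap. The 12 cells led by C1qa described next made up 10.7% and 11.6% of the class in the DEX litters and 2.33% and 3.53% in the PBS litters, and summed markers of mast cells (174 and 34.1 against 1523 and 192 CPM), mesenchymal cells (9.65 and 12.2 against 20.6 and 18.0 CPM), B cells (4.82 and 19.5 against 23.1 and 32.2 CPM) and ILC2s (19.3 and 12.2 against 25.7 and 56.7 CPM) separated the groups as well. Summed markers of basophils and of epithelial and endothelial cells overlapped between the groups. With so few litters, genes and lists can separate by chance, and the share of all genes that did so was not counted. The part of the C1qa-led cells and of these markers in the Il18 difference was not tested. The Il18 difference itself was not tested either, because DEX-1, DEX-2 and PBS-1 held fewer than 50 of these cells. The level was 32.1-fold above the next class, the mesenchymal-like cells at 9.32 CPM. The 3 larger clusters of the class had 287 to 347 CPM over their summed cells, while 12 cells led by C1qa, a complement gene of tissue macrophages, had a single UMI (21.6 CPM). An unnamed cluster of 51 cells led by the neutrophil genes S100a8 and S100a9 had 62 Il18 UMIs (139.9 CPM).

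**Figure D1:**
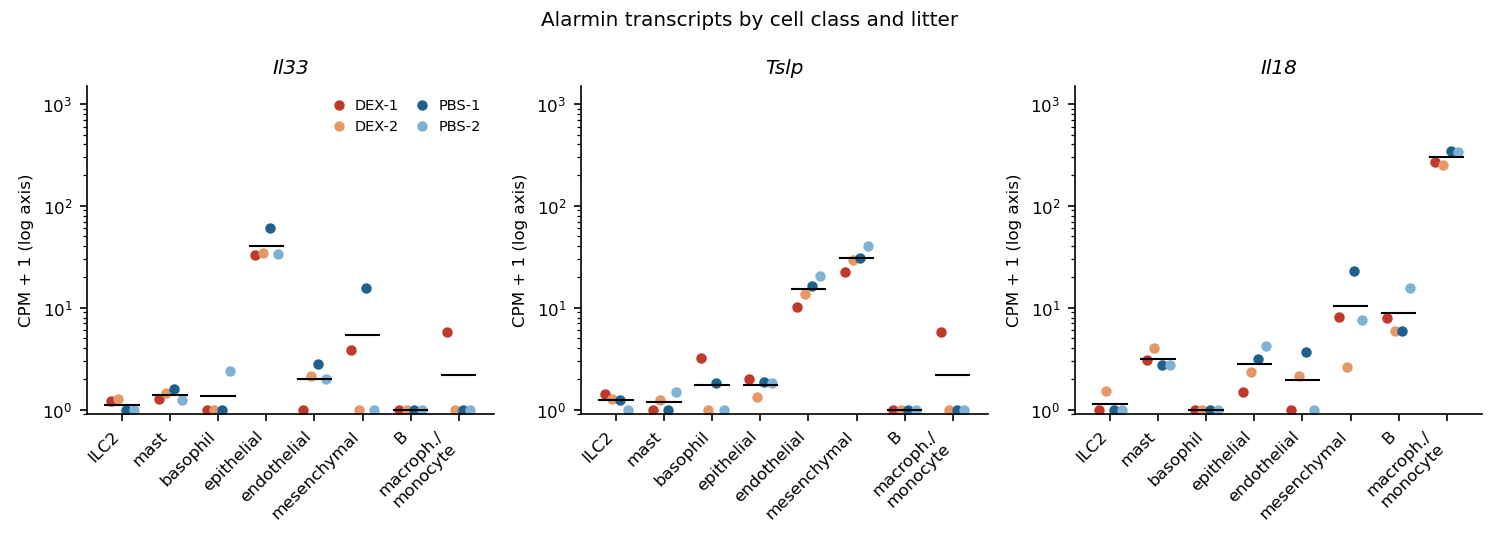
Level of the ligand genes Il33, Tslp and Il18 (CPM + 1, log axis) in 8 cell classes, with 1 point per litter and a bar at the mean of the 4 litters. Il33 is highest in epithelial-like cells (mean 39.2 CPM), Tslp in mesenchymal-like cells (29.6 CPM) and Il18 in macrophage or monocyte-like cells (299 CPM). Il25, which had no UMI, is not drawn.

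Il1rl1, the gene of the IL-33 receptor ST2, was highest in mast-like cells. Mast-like cells had 553 (DEX-1), 592 (DEX-2), 655 (PBS-1) and 682 (PBS-2) CPM, a mean of 620.1 ± 58.8 (SD, n = 4). ILC2-like cells had 162, 192, 221 and 235 CPM in the same order (mean 203 ± 32.6), and basophil-like cells had 156, 159.9, 127 and 138 CPM (mean 145 ± 15.5). These 3 classes followed each other without overlap, by 3.06-fold and 1.40-fold, and the DEX litters lay below the PBS litters in the mast-like and ILC2-like cells and above them in the basophil-like cells.

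The clusters within the mast-like class had different levels, which were not tested. The largest cluster, led by the chymase gene Cma1, had 524.5 ± 68.9 CPM, the cluster led by Mcpt2 had 668.7 ± 64.8 and the 155 cells led by the receptor gene Mrgprb1 had 932 ± 90.2 (SD, n = 4). The unnamed cluster led by Gzmb and Scin, which shares mast and basophil markers, had 287 ± 60.4 CPM. Within the ILC2-like class, the main cluster had 228 ± 34.3 CPM and the cycling cluster, led by Ube2c and Birc5, had 136 ± 24.5, and these clusters did not overlap. A further ILC2-like cluster, 28 cells of low depth led by Tox and Rora (median 2417 UMIs), had 109 Il1rl1 UMIs, or 1450 CPM over its summed cells, above each mast-like cluster.

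In the endothelial-like, epithelial-like, mesenchymal-like and B-like cells, Il1rl1 sat largely in cells that also held mast cell transcripts. Cells with at least 10 UMIs of Cma1, Cpa3 and Tpsb2 together, 3 protease genes of mast cells, made up 35 of 282 endothelial-like cells and held 192 of their 231 Il1rl1 UMIs. They made up 65 of 447 epithelial-like cells with 269 of 329 Il1rl1 UMIs, 56 of 197 mesenchymal-like cells with 269 of 316, and 3 of 199 B-like cells with 16 of 23. Without these cells the endothelial-like level went from 59.5 ± 45.2 to 11.5 ± 1.37 CPM, the epithelial-like level from 34.3 ± 13.1 to 7.10 ± 3.26 and the mesenchymal-like level from 141 ± 44.6 to 38.1 ± 38.2, in which PBS-2 alone remained at 95.3 CPM beside 16.8 to 21.4 CPM in the other litters. The ILC2-like level stayed at 202 CPM, since 18 such cells held 51 of its Il1rl1 UMIs. In the macrophage or monocyte-like cells such cells held 5 Il1rl1 UMIs, and the level went from 7.61 to 5.10 CPM. The basophil-like class was left out of this check, and Cpa3 is among the markers shared by mast cells and basophils. There 183 of 493 cells met the same limit (49.0%, 34.3%, 28.0% and 47.8% in DEX-1, DEX-2, PBS-1 and PBS-2). The part of those cells in the basophil-like Il1rl1 level was not tested.

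**Figure D2:**
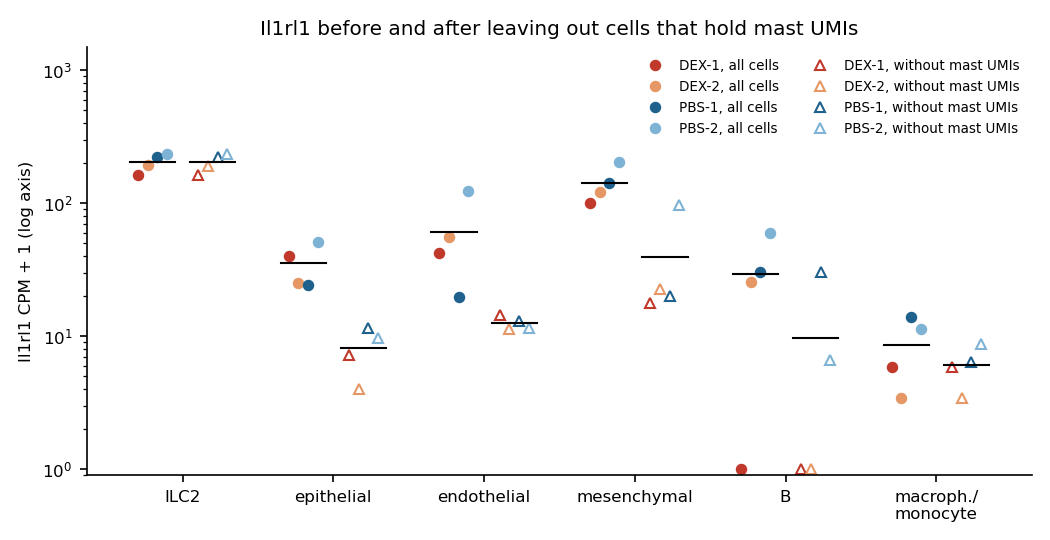
Il1rl1 (CPM + 1, log axis) by class in all cells and without the cells that held at least 10 UMIs of 3 mast cell genes, with 1 point per litter. The endothelial-like, epithelial-like and mesenchymal-like levels then had means of 11.5, 7.10 and 38.1 CPM, while the ILC2-like level stayed at 202 CPM.

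Cells with an Il1rl1 UMI were counted after each cell was thinned to 2000 UMIs, so that all were read at 1 depth. The share was 64.5% in mast-like cells (exact 95% interval 62.4 to 66.5), 34.3% in ILC2-like cells (32.3 to 36.4) and 23.5% in basophil-like cells, beside 1.62% in B-like cells, which served as the class that should lack the receptor. Unthinned shares were 87.1% (mast-like), 71.4% (ILC2-like) and 3.02% (B-like), at median depths of 6253, 7186 and 3528 UMIs. These intervals cover counting error only.

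Il1rap, the chain shared by the receptors of IL-1, IL-33 and IL-36, had class means of at most 12.3 CPM. The means were 12.3 ± 4.72 CPM in mesenchymal-like, 12.0 ± 6.10 in macrophage or monocyte-like, 11.2 ± 3.89 in basophil-like, 6.92 ± 2.41 in epithelial-like, 5.87 ± 1.71 in ILC2-like, 5.83 ± 0.842 in mast-like and 3.93 ± 2.83 in endothelial-like cells (SD, n = 4). Every class overlapped the next in order, down to B-like cells with 2 UMIs, so neighbouring classes could not be told apart for this gene. Small clusters with few UMIs had higher levels, among them 106 CPM on 8 UMIs in the 28 ILC2-like cells led by Tox and 64.7 CPM on 3 UMIs in the 12 cells led by C1qa.

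The IL-25 receptor gene Il17rb marked the ILC2-like cells. The litters had 99.7 (DEX-1), 112 (DEX-2), 107 (PBS-1) and 102 (PBS-2) CPM, a mean of 105 ± 5.32 (SD, n = 4), and the groups overlapped. The 28 cells led by Tox had 505 CPM over their sum, on 38 UMIs. The mesenchymal-like cells came next with 7.86 CPM, 13.3-fold lower and without overlap, and mast-like cells had 0.661 CPM on 10 UMIs. After thinning, 20.2% of ILC2-like cells held an Il17rb UMI (18.5 to 22.0), and 0 of 185 B-like and 0 of 2072 mast-like cells did, which allows shares of cells with a UMI at that depth of up to 1.62% and 0.145%.

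Crlf2, the TSLP receptor gene, had another order. Basophil-like cells had 205 (DEX-1), 225 (DEX-2), 233 (PBS-1) and 174 (PBS-2) CPM, a mean of 209 ± 26.0 (SD, n = 4). Mast-like cells followed with 157, 132, 153 and 136 CPM (mean 145 ± 12.5) and endothelial-like cells with 92.0, 125, 96.7 and 96.1 CPM (mean 102 ± 15.2), each below the class before it without overlap. B-like cells, at 87.4 ± 14.7 CPM, overlapped the endothelial-like cells, and the macrophage or monocyte-like (62.9), mesenchymal-like (62.4) and ILC2-like (58.3 ± 6.55) means could not be told apart. Epithelial-like cells were lowest at 14.4 ± 2.70 CPM. Without the cells rich in mast transcripts, which held 75 of the 139 epithelial-like and 81 of the 140 mesenchymal-like Crlf2 UMIs, these levels were 7.59 and 43.0 CPM. The thinned shares were 36.0% of basophil-like, 23.5% of mast-like, 22.1% of endothelial-like, 16.8% of B-like, 11.4% of ILC2-like, 9.84% of macrophage or monocyte-like, 8.29% of mesenchymal-like and 2.48% of epithelial-like cells.

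Il18r1, the ligand-binding chain of the IL-18 receptor, was shared by immune and epithelial cells. Basophil-like cells had 68.7 (DEX-1), 64.7 (DEX-2), 84.8 (PBS-1) and 36.5 (PBS-2) CPM, a mean of 63.6 ± 20.1 (SD, n = 4), and epithelial-like cells had 49.2, 77.7, 53.5 and 67.1 CPM (mean 61.9 ± 13.0), so that these classes overlapped. ILC2-like cells had 55.0, 50.03, 36.8 and 33.6 CPM (mean 43.8 ± 10.3), and mast-like cells 17.2 ± 4.01. Within the epithelial-like class the order was the reverse of that of Il33: the alveolar type 1 gene cluster held 118.5 CPM on 156 UMIs and the alveolar type 2 gene cluster 51.1 CPM. The macrophage or monocyte-like cells, where Il18 itself was highest, held 1 Il18r1 UMI (0.322 CPM).

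**Figure D3:**
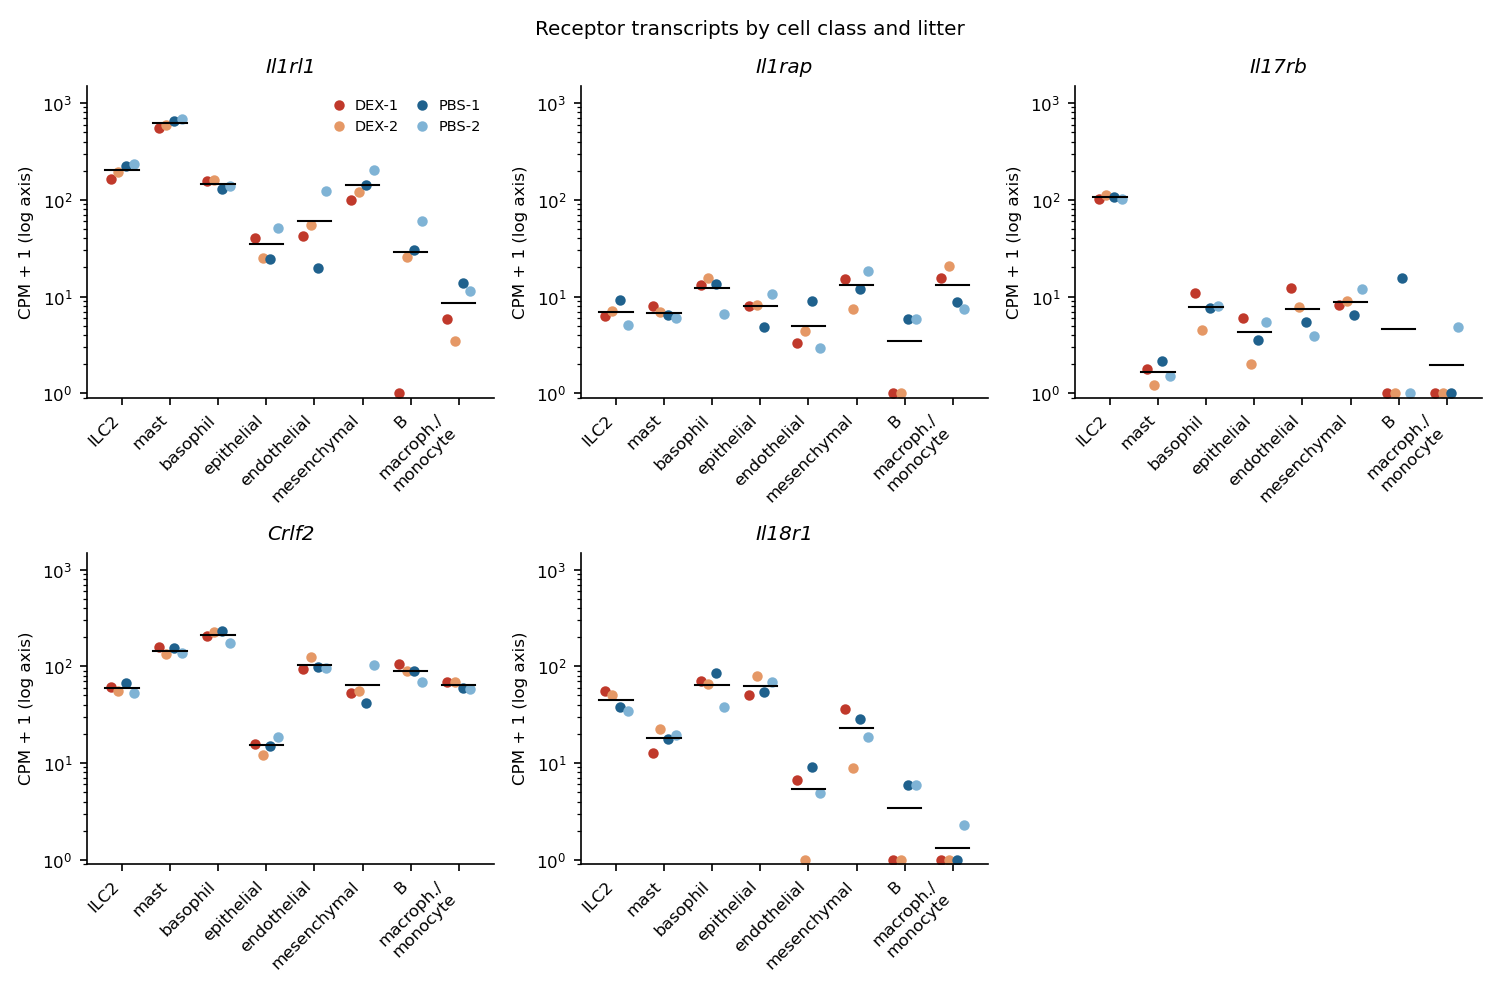
Level of the 5 receptor genes (CPM + 1, log axis) in 8 cell classes, with 1 point per litter and a bar at the mean. Il1rl1 is highest in mast-like cells (mean 620.1 CPM), Il17rb in ILC2-like cells (105 CPM) and Crlf2 in basophil-like cells (209 CPM), while the Il1rap points of neighbouring classes overlap throughout.

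Receptor genes met in single cells to different degrees. Over cells thinned to 2000 UMIs, 14.2% of ILC2-like, 16.5% of mast-like and 11.7% of basophil-like cells held UMIs of at least 2 of the 4 genes Il1rl1, Il17rb, Crlf2 and Il18r1. Among ILC2-like cells, Il17rb was found in 23.9% of those with an Il1rl1 UMI and in 18.2% of those without, with the same direction in 4 of 4 litters. Il18r1 went the other way, with 3.98% against 7.12%, and was less frequent beside an Il1rl1 UMI in 4 of 4 litters. In mast-like cells the direction for Il18r1 differed, at 3.29% with and 1.77% without an Il1rl1 UMI in 4 of 4 litters. These shares were not tested and rest on cells of the same 4 litters.

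The likeness of other genes to each member was measured over the 32 sums of 8 classes in 4 litters, among 9763 genes with at least 20 CPM in a class, as Pearson's r of log2 CPM. The points share 1 library and differ in depth, so r is a description. Nearest to Il33 were Cdkn2b (r = 0.945), Cgn (0.936) and Proser2 (0.934), and nearest to Tslp were Ptgis (0.942), Hoxb5 (0.941) and Bgn (0.941). For Il18 they were the myeloid genes Mpeg1 (0.940), Clec4a3 (0.910) and Fcgr1 (0.907). Near Il1rl1 were Lat (0.938), an adaptor gene of antigen receptor signalling, and Inpp4b (0.921), and nearest to Il17rb were Il2ra (0.963), which encodes the IL-2 receptor alpha chain, Tnfrsf25 (0.942) and Cxcr6 (0.939). Crlf2 was nearest to Gmfg (0.929), Clic1 (0.892) and Rap1a (0.890), and Il18r1 had the weakest neighbours, Klf5 (0.850), Smpd1 (0.847) and Osbpl5 (0.841). Il25 and Il1rap stayed under 20 CPM and were not compared.

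The direct comparison of mast-like with ILC2-like cells used edgeR's quasi-likelihood test on UMIs summed per litter and class, with the litter as a block and Benjamini-Hochberg adjustment over 10907 genes. The 2 classes were made by clustering the same cells, and 71.1% of all genes passed an adjusted p of 0.05, so the sizes carry more than the calls. Of the 5 members tested, 4 passed. Il1rl1 was higher in mast-like cells by a log2 fold change of 1.76 ± 0.06 (SE, adjusted p = 3.91e-11) and Crlf2 by 1.45 ± 0.07 (adjusted p = 1.17e-09). Il17rb was lower, with a log2 fold change of -7.17 ± 0.19 (adjusted p = 2.21e-12), and Il18r1 was lower at -1.21 ± 0.17 (adjusted p = 3.06e-05). With 0.661 CPM in mast-like cells, Il17rb passed the low-count filter through ILC2-like cells alone, so its direction was set by the filter. For Il1rap the log2 difference was 0.15 ± 0.23 (95% interval -0.29 to 0.60, adjusted p = 0.565), so a difference was not detectable.

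Other genes of the same pathways were read from 3 lists, whose counts stand beside the 71.1% of all genes that passed. In the list of IL-1 family signalling, 14 of 17 tested genes (of 18) passed, 9 higher and 5 lower in mast-like cells, with a median log2 fold change of 0.36 beside 0.00 over all genes. The decoy receptor gene Il1r2 had the largest difference of the list at 8.05, from 0.35 CPM in ILC2-like to 88.4 CPM in mast-like cells. Il1r2 passed the low-count filter through mast-like cells alone, so its direction was set by the filter. Next came the inhibitors Irak3 (2.48) and Tollip (1.71) and Il18rap (1.19, from 19.0 to 40.1 CPM). The adaptor gene Myd88 (0.63) and the kinase gene Irak4 (0.63) were also higher, though neither passed with thinned cells (0.28 with adjusted p = 0.312 and 0.10 with adjusted p = 0.757, edgeR). Irak1, Map3k7 and Mapk14 were higher as well. The kinase gene Irak2 (-1.10), the adaptor gene Tab2 (-0.85), Nfkb1 (-0.77), the inhibitory receptor gene Sigirr (-0.40) and Ikbkb were lower. Map3k7 and Ikbkb did not pass under every alternative.

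In the list of genes for release of IL-18 and IL-33 and of decoys, only 4 of 9 genes could be tested. All 4 were higher in mast-like cells, with a median of 1.21, beside 3906 of 10907 genes that passed as higher. They were the pore gene Gsdmd (1.24), the inflammasome genes Nlrp3 (1.18) and Pycard (0.47), and the cytokine gene Il1b (7.21, on 4 UMIs in ILC2-like cells). Il1b passed the low-count filter through mast-like cells alone, so its direction was set by the filter. In the list of TSLP and IL-25 signalling, 6 of 8 genes passed, beside 71.1% of all genes, with 2 higher, 4 lower and a median of -0.40. Il7r, whose product pairs with that of Crlf2, was lower in mast-like cells at a log2 fold change of -2.07, with 673 CPM in ILC2-like and 147 CPM in mast-like cells. Jak2 (-1.43), Traf3 (-0.63) and Jak1 (-0.49) were lower as well, and Stat5b (1.17) and Il17ra (0.49) were higher, the latter with an adjusted p of 0.0681 in edgeR with thinned cells. Crlf2 and Il7r, the 2 chains of the TSLP receptor, thus differed in opposite directions between these classes.

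**Figure D4:**
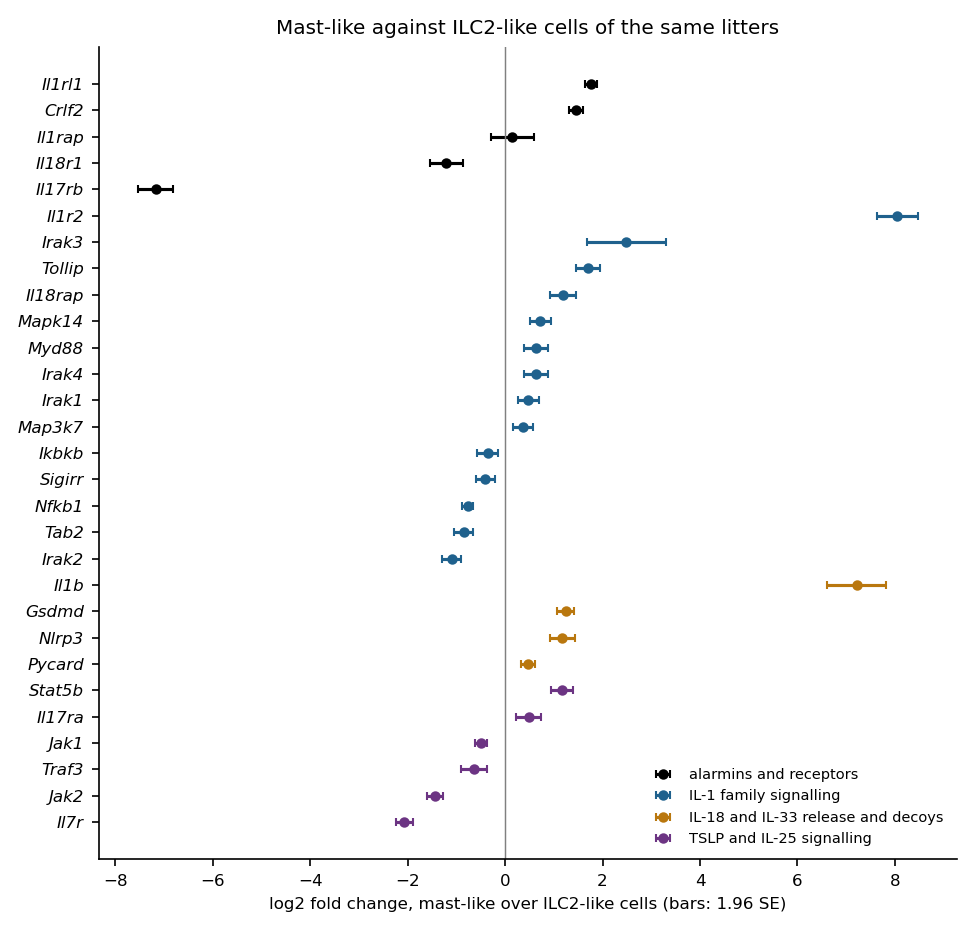
Log2 fold change of mast-like over ILC2-like cells for the alarmin receptor genes and for those genes of 3 pathway lists that passed, with bars of the 95% interval. Pathway genes that did not pass or were not tested are not drawn. Il17rb (-7.17) lies farthest to the left and Il1r2 (8.05) farthest to the right.

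DEX was compared with PBS in the 5 classes with at least 50 cells in every litter. In ILC2-like cells, 261 of 10647 genes (2.45%) passed, 124 higher and 137 lower in DEX litters, and 1 of the 5 members tested was among them. Il18r1, at 55.0 and 50.03 CPM in DEX against 36.8 and 33.6 CPM in PBS litters, was higher by a log2 fold change of 0.59 ± 0.12 (SE, adjusted p = 0.0165, edgeR). The litters did not overlap, but the adjusted p was 0.184 with DESeq2, 0.447 with thinned cells and 0.0508 without DEX-1. Over 12 alternatives it ranged from 0.000894 to 0.447, and the log2 fold change from 0.52 to 0.65. In the main ILC2-like cluster the levels were 54.5 and 53.8 against 36.6 and 26.6 CPM, and in the cycling cluster, where the groups overlapped, 56.3 and 42.9 against 37.8 and 47.6 CPM.

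Il1rl1 in ILC2-like cells had a log2 difference of -0.36 ± 0.09 (SE), from 162 and 192 CPM in DEX to 221 and 235 CPM in PBS litters, and did not pass (adjusted p = 0.0627). Over the 12 alternatives its adjusted p ranged from 0.000549 to 0.397, and 7 of the 12 passed. The same direction held without overlap in the main cluster, at 184.5 and 218 against 246 and 263 CPM, and in the cycling cluster, at 105 and 129 against 151 and 160 CPM. The intervals of the other receptor genes covered 0: Il17rb had a log2 difference of 0.03 (95% interval -0.15 to 0.21), Crlf2 of -0.04 (-0.28 to 0.20) and Il1rap of -0.05 (-0.73 to 0.63).

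Summed markers of some other cell types separated the groups in the ILC2-like cells. With so few litters, lists can separate by chance, and the share of all genes that did so was not counted. The summed level of 8 mesenchymal markers, 1 of them at 0, was 32.0 and 35.4 CPM in DEX against 18.8 and 17.5 CPM in PBS litters, and that of 8 endothelial markers 55.0 and 59.7 against 44.4 and 45.5 CPM. The 6 basophil markers gave 25.2 and 60.2 against 24.9 and 16.9 CPM, the 8 macrophage or monocyte markers 10.4 and 9.69 against 9.40 and 8.06 CPM, and the 8 B cell markers, 3 of them at 0, 44.1 and 51.3 against 60.9 and 57.2 CPM, all without overlap. Their part in the Il18r1 and Il1rl1 differences was not tested. Mast and epithelial markers overlapped between the groups. Without cells holding 10 or more mast UMIs, Il18r1 had 54.5 and 51.3 CPM in DEX against 36.9 and 33.9 CPM in PBS litters.

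In mast-like cells 0 of 10502 genes (0%) passed with edgeR, with 611 at an unadjusted p under 0.05 and 7 passing with DESeq2. Il1rl1 was at 553 and 592 against 655 and 682 CPM, a log2 difference of -0.22 ± 0.11 (SE, adjusted p = 0.893), and Il1rap (0.31), Crlf2 (0.00) and Il18r1 (-0.09) had smaller differences relative to their SE. The summed level of 9 ILC2 markers in the mast-like cells was 115 and 116 CPM in DEX against 133 and 125 CPM in PBS litters. Its part in the Il1rl1 difference was not tested. Summed markers of basophils and of epithelial, endothelial, mesenchymal, B and macrophage or monocyte cells overlapped between the groups. In basophil-like cells 0 of 7470 genes (0%) passed, with 110 at an unadjusted p under 0.05 and 0 with DESeq2, and Il1rl1 had a log2 difference of 0.28 ± 0.20 (95% interval -0.11 to 0.67), Il1rap of 0.49 ± 0.50, Crlf2 of 0.08 ± 0.23 and Il18r1 of 0.09 ± 0.36 (SE).

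In epithelial-like cells 1 of 10903 genes (0.00917%) passed, with 639 at an unadjusted p under 0.05 and 5 passing with DESeq2. That gene was the haptoglobin gene Hp, named here after its value was seen (log2 fold change -1.05 ± 0.10, adjusted p = 0.0327). None of the 6 members tested passed: Il33 had a log2 difference of -0.43 ± 0.27 (95% interval -0.97 to 0.10, adjusted p = 0.879), Il1rl1 of -0.20, Il1rap of 0.12, Il17rb of -0.30, Crlf2 of -0.27 and Il18r1 of 0.16. The epithelial Il33 difference rests on PBS-1, since the log2 difference was 0.09 without that litter.

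In endothelial-like cells 0 of 8785 genes (0%) passed, with 336 at an unadjusted p under 0.05 and 1 with DESeq2. Tslp had a log2 difference of -0.65 ± 0.41 (95% interval -1.46 to 0.16, adjusted p = 0.996), and Crlf2 one of 0.20 ± 0.20. On leaving out each litter the Tslp difference stayed negative, from -0.905 to -0.425. The Cxcl12-led cells given above held 19 Tslp UMIs, and their part was not tested. In the other endothelial-like cells PBS-1 was lowest at 7.91 CPM and PBS-2 highest at 13.9 CPM, so that the groups overlapped. Il1rl1, at 40.9 and 54.5 against 18.8 and 124 CPM, had one of -0.54 ± 0.73. Without PBS-1 it was -1.37 (adjusted p = 0.000135, edgeR) and without PBS-2 it was 1.40 (adjusted p = 0.0240, edgeR), while the share of endothelial-like cells with 10 or more mast UMIs was 14.3% and 12.5% in DEX and 2.08% and 28.8% in PBS litters. Without those cells Il1rl1 stood at 13.3 and 10.4 against 11.9 and 10.5 CPM.

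Whether the DEX difference itself differed between mast-like and ILC2-like cells was tested as an interaction. Of 11569 genes, 18 passed (0.156%), with 653 at an unadjusted p under 0.05 and 10 passing with DESeq2, and none of the 5 members tested was among them. For Il18r1 the DEX difference in mast-like minus that in ILC2-like cells, on the log2 scale, was -0.68 ± 0.28 (SE, 95% interval -1.24 to -0.13, adjusted p = 0.789, edgeR) and for Il1rl1 it was 0.15 ± 0.12 (adjusted p = 0.937). The Il18r1 difference was therefore called in ILC2-like cells and not shown to be particular to them. No gene of the 3 pathway lists was called for DEX in any of the 5 classes or in the interaction.

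**Figure D5:**
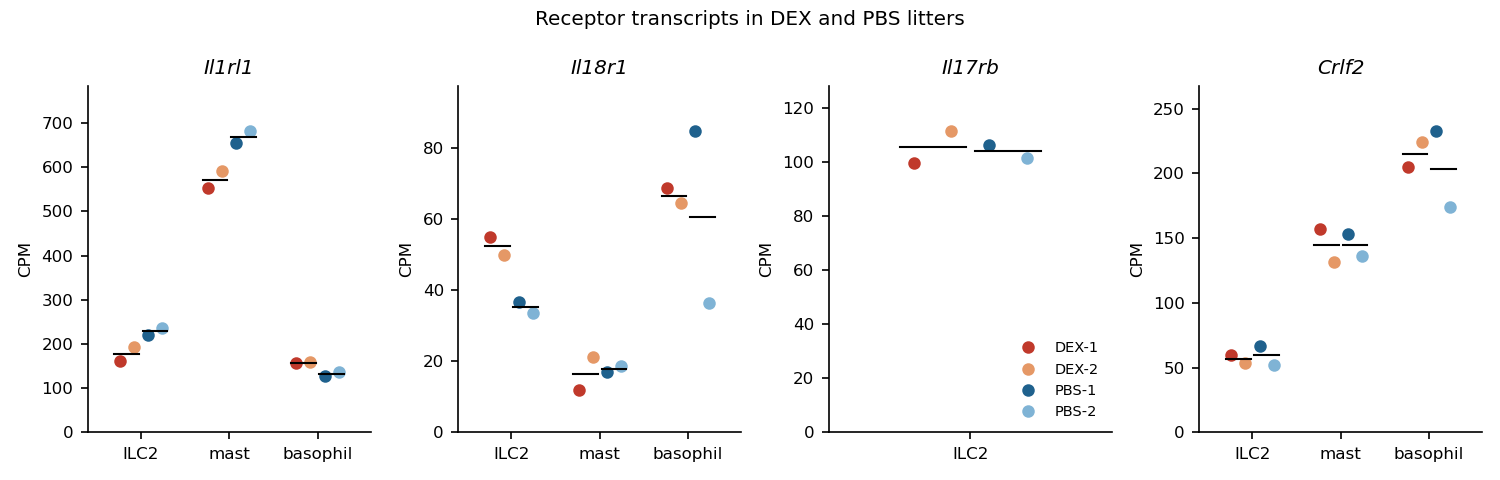
Levels (CPM, linear axis) of Il1rl1, Il18r1 and Crlf2 in ILC2-like, mast-like and basophil-like cells and of Il17rb in ILC2-like cells. Each litter is 1 point, coloured by litter, with group means as bars. The tested epithelial-like and endothelial-like classes are not drawn. In ILC2-like cells the DEX litters lie above the PBS litters for Il18r1 (55.0 and 50.03 against 36.8 and 33.6 CPM) and below them for Il1rl1 (162 and 192 against 221 and 235 CPM).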

How the data were processed

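Single-cell RNA was read with a 10x 5′ kit in 1 library of 4 hashtagged litters (2 DEX, 2 PBS). The deposited matrix holds unnormalized UMI counts of genes by barcodes, which the authors made with Cell Ranger 7 multi on mm10, per the file headers and the submitters' processing notes. Hashtags were assigned with HTODemux (Seurat 5.3.0), and 736 hashtag doublets and 2405 barcodes without a call were left out. Doublets within a litter were not called. Barcodes needed at least 200 genes and at most 5% mitochondrial UMIs.

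Cells were clustered with scanpy 1.11.5 (Leiden, resolution 0.5) without the member and pathway genes, and clusters were named from marker lists by a rule set after the clusters were seen. Counts were summed per litter and class and tested with edgeR 4.0.16 (TMM, filterByExpr, two-sided quasi-likelihood F-test, Benjamini-Hochberg over all genes tested, called under 0.05) in classes with at least 50 cells in every litter. SE was |log2 fold change| over the root of F, and 95% intervals are normal. Shares were taken after thinning to 2000 UMIs per cell. Only the edgeR tests were first run on simulated counts.

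The rule named all 9 members across the classes, with low levels given as ranges, pathway genes where called in a comparison of classes, and for each member the 3 genes of highest r, except that 1 gene is not reported here. The members, gene lists and tests were chosen with earlier results of these data known. Litters held 18665955 to 23660294 UMIs. Alternatives were DESeq2 1.42.0, RLE scaling, no filter on low counts, a hashtag ratio rule, a mitochondrial limit of 10%, a Leiden resolution of 1.0, thinned cells, a replicate block and leaving out each litter. Levels without cells rich in mast UMIs and the basophil interactions were added after the data were seen. Positions come from GENCODE M21 by Ensembl ID.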

Additional observations from a re-analysis of the deposited data

Results flagged for a closer look

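For Il1rl1, the DEX litters lay above the PBS litters on average in basophil-like cells and below them in the ILC2-like, mast-like, mesenchymal-like and B-like cells. The DEX difference in basophil-like cells minus that in another class, on the log2 scale of group mean CPM, was 0.62 for ILC2-like, 0.48 for mast-like, 0.90 for mesenchymal-like and 2.10 for B-like cells. As an interaction in edgeR, a test added after the data were seen, the basophil-like difference exceeded that of ILC2-like cells by 0.64 ± 0.22 (SE, adjusted p = 1 over all genes) and that of mast-like cells by 0.50 ± 0.24 (SE, adjusted p = 1), so neither passed. The differences from mesenchymal-like and B-like cells were not tested. The part of the basophil-like cells with mast transcripts, given above, was not tested either. Of the 316 mesenchymal-like Il1rl1 UMIs 269 lay in cells rich in mast transcripts, and the summed mast markers of that class were 5188 and 6996 CPM in DEX against 7823 and 12199 CPM in PBS litters. Without the cells rich in mast transcripts the level was 16.8 (DEX-1) and 21.4 (DEX-2) against 19.0 (PBS-1) and 95.3 (PBS-2) CPM, so the groups overlapped. The part of those cells in the difference of 0.90 was not tested. The B-like value rests on 23 UMIs, with DEX-1 at 0, and 16 of the 23 lay in 3 cells with mast transcripts.

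The 2405 barcodes without a hashtag call, which entered no comparison, had a median of 6295 UMIs and held most of the same genes. Of the UMIs in all barcodes, these barcodes held 622 of 1572 for Il33 and 350 of 745 for Tslp. For Il18 they held 74 of 943 and for Il1rl1 225 of 20240. The levels by class leave these UMIs out. Their summed levels were 31.6 CPM for Il33, 17.8 for Tslp, 3.76 for Il18, 11.4 for Il1rl1, 10.3 for Il1rap, 0.610 for Il17rb, 29.8 for Crlf2 and 40.2 for Il18r1, and Il25 was at 0. A count of 0 in these barcodes allows 0.152 CPM, and each of the 8 detected genes exceeded it.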

How the results depend on the processing

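Counts of genes called for DEX moved with most settings. In ILC2-like cells 261 became 120 with DESeq2, 531 with no filter on low counts, 94 with thinned cells and 305 (without DEX-2) to 428 (without PBS-2) on leaving out each litter. In mast-like cells 0 became 7 with DESeq2, 1 with RLE, 163 with no filter, 1 at the higher resolution, 7 with thinned cells and 1 (without PBS-1) to 265 (without DEX-2), with 166 without DEX-1. Basophil-like cells gave 15 with no filter, 1 thinned and 2 (without PBS-1) to 27 (without DEX-2). Epithelial-like cells gave 5 with DESeq2, 138 with no filter, 4 at the mitochondrial limit of 10%, 3 at the higher resolution, 0 thinned and 4 (without PBS-1) to 28 (without DEX-1). Endothelial-like cells gave 1 with DESeq2, 6 with no filter, 4 with the hashtag ratio rule and 0 (without either DEX litter) to 162 (without PBS-2), with 160 without PBS-1. Interaction calls were 10 with DESeq2, 107 with no filter and 2 (without DEX-1) to 26 (without PBS-2), and mast-like against ILC2-like calls 4849 with thinned cells. Member calls for DEX over the 5 classes, 1 as reported, were 0 with DESeq2, 2 with RLE, 2 with no filter, 2 with the ratio rule, 0 thinned and 0 (without DEX-1) to 3 (without either PBS litter). The causes were not tested. With 1 litter left in a group, that litter was assumed to vary like the other group.

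The replicate block by litter number gave 426 calls in ILC2-like, 12 in mast-like, 0 in epithelial-like and 2 in endothelial-like cells, and 2 member calls, Il1rl1 (adjusted p = 0.00831, edgeR) joining Il18r1. Deviations of same-numbered litters correlated at 0.07 in ILC2-like, 0.12 in mast-like, -0.27 in basophil-like, -0.17 in epithelial-like and -0.03 in endothelial-like cells, and no label pairs the litters, so they share only a number.

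Of 368 member tests under alternatives, 323 kept direction and call and 34 reversed, none of which passed in the reported test. Reversed log2 values were 0.18 for Crlf2 in ILC2-like, -0.19 for Il18r1 in basophil-like, 0.79 for Il1rl1 in endothelial-like cells and -0.14 for the Crlf2 interaction with thinned cells, -0.0006 for Crlf2 in mast-like cells with the block, and 0.25 for Il1rl1, -0.0243 for Il1rap, 0.0643 for Il17rb and 0.23 for Crlf2 in epithelial-like cells with the ratio rule. Without each litter in turn, differences that reversed ran as follows. In ILC2-like cells they ran from -0.52 to 0.48 for Il1rap, -0.07 to 0.13 for Il17rb and -0.21 to 0.12 for Crlf2. In mast-like cells they ran from -0.13 to 0.14 for Crlf2 and -0.57 to 0.27 for Il18r1. In basophil-like cells they ran from -0.14 to 0.38 for Crlf2 and -0.38 to 0.94 for Il18r1. In epithelial-like cells they ran from -0.82 to 0.0859 for Il33, -0.63 to 0.45 for Il1rl1, -0.37 to 0.93 for Il1rap, -1.66 to 0.56 for Il17rb and -0.25 to 0.44 for Il18r1. In endothelial-like cells they ran from -1.37 to 1.40 for Il1rl1 and -0.0449 to 0.42 for Crlf2. Interactions ran from -0.12 to 0.78 for Il1rap, -1.79 to 0.0317 for Il17rb and -0.0523 to 0.15 for Crlf2.

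Of 225 levels under alternatives 206 moved by less than 1 SD between litters. The class with most Il18r1 changed from basophil-like to epithelial-like with thinned cells and without DEX-1, PBS-1 or the cells rich in mast UMIs. DEX tests were not run in mesenchymal-like, B-like and macrophage or monocyte-like cells, which had fewer than 50 cells in a litter, nor in a neutrophil class, since no cluster took that name. Depth limits Il25, Il1rap and Tslp, whose counts per class and litter were low.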
